A study of Mus musculus with 29 samples.

Results

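Marrow of MLL-ENL-ERtm mice in the state labelled senescence was compared with wild-type marrow. The comparison rests on 7 of the 29 arrays of the series, chosen by their titles alone: 3 senescence arrays and 4 wild-type arrays, called biological replicates in the labels. MLL-ENL is a leukaemia oncogene in which the chromatin regulator MLL is joined to ENL, a partner of the transcription elongation machinery. In the fusion protein studied here a mutated hormone-binding part of the oestrogen receptor, ERtm, was added, so that the oncogene works only while tamoxifen is given. The senescence mice carried MLL-ENL-ERtm and had received tamoxifen for 8 months. The wild-type mice lacked the fusion and had received the same drug, 300 mg per kg of chow, for 8 months (array 1) or 7 months (arrays 2 to 4). Marrow of the same model labelled proliferation (4 arrays, 7 months) and transition (4 arrays, 7 to 8 months) entered the statistical model and is used for 1 comparison at the end. The promoter that drives the fusion, the sexes of the mice and whether marrow was sorted before RNA isolation are not given in the sources used here. Tamoxifen was given to every group, so no array shows untreated marrow.

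MLL fusions bind chromatin through the part of MLL that recognises unmethylated CpG, and they keep genes of early blood progenitors active, above all the later genes of the Hoxa cluster and their cofactor Meis1. Cellular senescence is a lasting arrest of division that follows oncogene activity, DNA damage or worn telomeres. It is usually enforced by the cyclin-dependent kinase inhibitors Cdkn1a and Cdkn2a, is often preceded by signalling of the kinases Atm and Chek1, and can come with the secretion of cytokines and proteases. Bone marrow holds granulocytes, monocytes, red cell precursors and developing B cells together, so the RNA level of a gene in whole marrow depends on both the cells present and the RNA in each of them. In bulk samples fewer cells of a type and less RNA per cell cannot be told apart.

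Levels are log2 values that the authors deposited after RMA, a method that corrects background, normalizes arrays and summarises the probes of a probe set. A difference of 1 on this scale is a doubling. Each of 12394 genes was represented by its brightest probe set, and differences are senescence minus wild type ± their standard error from limma (n = 3 and 4 throughout). The error draws on the scatter within all 4 groups of the 15 marrow arrays, so it is not the spread of these 7 alone. A gene was called where the p adjusted over all genes by Benjamini-Hochberg was below 0.05. No fold is printed where the mean of the lower group was below 7.32, within 1 unit of the lower quartile of the array signals, since such probe sets may hold little signal. The median levels of the 7 arrays lay between 8.14 and 8.25, correlations between arrays of the marrow between 0.962 and 0.995, and no 2 arrays were identical. The 3' to 5' difference of the Gapdh control probes, a sign of RNA integrity, was 1.27 to 2.06 in senescence marrow and 1.57 to 1.83 in wild-type marrow. Xist, the RNA of the inactive X chromosome, was high in senescence array 1 and wild-type arrays 3 and 4 (12.87 to 13.11). It was low in senescence arrays 2 and 3 and wild-type arrays 1 and 2 (7.02 to 7.61). Eif2s3y, a gene of the Y chromosome, went the other way. It stood at 4.24, 11.79 and 11.89 in senescence marrow, against 11.71, 11.59, 4.42 and 4.49 in wild-type marrow. Arrays with high Xist thus read as female and those with low Xist as male, although no label gives a sex. Genes typical of marrow stood at high levels in all 7 arrays, such as the neutrophil collagenase Mmp8 (13.80 to 14.55) and the haem synthesis enzyme Alas2 (13.38 to 14.69).

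Of the 12394 genes, 6 were called, which is 0.0484%. Hoxa10, Hoxa9, Hoxa5 and Esr1 rose (0.0323% of genes rose), and Cmah and Bach2 fell (0.0161% fell). Without adjustment 788 genes had p below 0.05, and 41 genes lay at least 1 unit higher and 58 at least 1 unit lower. The median difference of all genes was 0.00, on arrays that RMA had already made alike in their distributions. Every senescence array lay above every wild-type array in 3.97% of all genes and below in 2.07%. Over all 22690 probe sets 4 were called, which is 0.0176%, and these were probe sets of the 4 genes that rose.

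**Figure D1:**
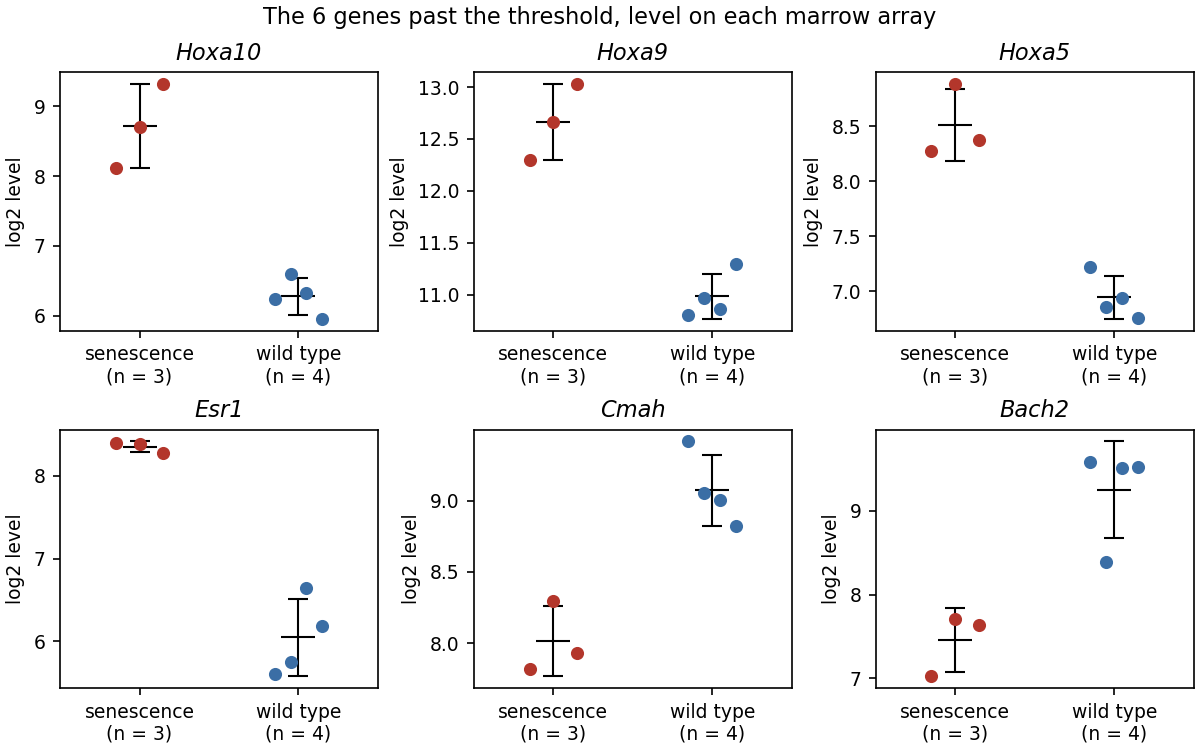
Level of the 6 called genes on each array, with log2 level on the vertical axes and senescence left of wild type. Points are arrays, and the bar shows the mean with 1 SD on either side (n = 3 and 4). Within each panel the 3 senescence arrays lie apart from the 4 wild-type arrays, with the narrowest spread for Esr1 in senescence marrow (8.28 to 8.39). The vertical axes differ between panels and do not start at 0.

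The 3 Hox genes that rose lie in the Hoxa cluster, a row of homeobox transcription factors in which Hoxa7, Hoxa9 and Hoxa10 serve blood progenitors. Their promoters are shown because the fusion is known to bind this locus through unmethylated CpG. Each run is the RefSeq promoter of build GRCm38.p6, 300 bases from 250 before to 50 after the start, with CG in capitals. Genes with more than 1 start are shown by the first entry.
Hoxa5, chr6:52204538-52204837, minus strand: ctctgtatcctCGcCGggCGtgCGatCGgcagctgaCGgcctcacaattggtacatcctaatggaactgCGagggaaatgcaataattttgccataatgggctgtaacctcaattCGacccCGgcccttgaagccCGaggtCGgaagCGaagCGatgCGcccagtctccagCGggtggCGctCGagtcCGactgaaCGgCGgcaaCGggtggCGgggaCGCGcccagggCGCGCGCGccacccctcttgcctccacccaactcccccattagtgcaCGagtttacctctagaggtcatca
Hoxa9, chr6:52227321-52227620, minus strand: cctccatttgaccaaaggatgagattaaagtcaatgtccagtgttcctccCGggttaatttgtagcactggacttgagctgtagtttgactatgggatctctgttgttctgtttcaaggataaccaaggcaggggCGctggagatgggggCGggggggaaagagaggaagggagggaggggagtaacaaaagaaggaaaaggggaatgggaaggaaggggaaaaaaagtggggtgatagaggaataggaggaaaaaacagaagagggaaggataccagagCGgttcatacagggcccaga
Hoxa10, chr6:52240805-52241104, minus strand: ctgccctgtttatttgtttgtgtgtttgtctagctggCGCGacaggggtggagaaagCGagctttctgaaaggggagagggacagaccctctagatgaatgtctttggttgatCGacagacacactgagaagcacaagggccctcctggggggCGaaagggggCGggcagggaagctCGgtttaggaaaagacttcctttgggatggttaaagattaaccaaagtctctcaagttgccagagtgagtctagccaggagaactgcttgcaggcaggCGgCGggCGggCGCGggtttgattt
The Hoxa5 window holds 29 CG, and 12.9% of the 32851 promoters in the table hold as many or more. The Hoxa10 window holds 12 (39.6% of promoters hold as many or more), and its other listed start holds 21 (24.8%). The Hoxa9 window holds 4 (68.6%), with a median of 7 over all promoters. The motif of MEIS proteins, TGACAG on either strand, is in none of these windows and in 19.2% of all promoters.

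Hoxa10, which restrains the maturation of myeloid cells, stood at 8.12, 8.70 and 9.32 in senescence marrow, against 6.24, 6.59, 6.33 and 5.95 in wild-type marrow. All senescence arrays lay at least 1 unit above every wild-type array, and the difference was 2.43 ± 0.27 (adjusted p = 0.00157). Hoxa9, the central target of MLL fusions in leukaemia, stood at 12.30, 12.66 and 13.03 in senescence marrow, against 10.81, 10.96, 10.86 and 11.30 in wild-type marrow. The groups did not overlap, and the level was 3.20-fold higher in senescence marrow (1.68 ± 0.21, adjusted p = 0.00282). A second, dimmer probe set of Hoxa9 showed a smaller difference of 0.64 ± 0.12, again with every senescence array above every wild-type array. Hoxa5 stood at 8.27, 8.88 and 8.37 in senescence marrow, against 7.22, 6.86, 6.94 and 6.76 in wild-type marrow, a difference of 1.56 ± 0.19 (adjusted p = 0.00282). Senescence array 1 was the lowest of its group in all 3 genes.

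The genes that rose lie in the middle and later stretch of the cluster. Hoxa7, between Hoxa5 and Hoxa9, stood at 8.93, 8.72 and 9.12 in senescence marrow, against 8.45, 8.34, 8.41 and 8.19 in wild-type marrow. It lay above wild type in all 3 arrays but was not called (0.57 ± 0.12, adjusted p = 0.188). Towards either end the differences were 0.18 ± 0.13 for Hoxa2, 0.00 ± 0.16 for Hoxa3, 0.22 ± 0.13 for Hoxa4, 0.10 ± 0.13 for Hoxa11 and -0.09 ± 0.17 for Hoxa13. Hoxa2, Hoxa4, Hoxa11 and Hoxa13 had levels of 4.77 to 6.59 on the 7 arrays, near or below the lower quartile of the arrays (6.19 to 6.28), so these probe sets could show a change only from little signal. Hoxa6 had no probe set with a single symbol. Of 22 Hox genes of the other clusters none was called, and the median difference was 0.02. Hoxb5 (0.22 ± 0.36) lay above and Hoxd11 (-0.30 ± 0.10) below every wild-type array. Each is 4.5% of the list, against 3.97% of all genes above and 2.07% below.

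Among the cofactors of the Hox proteins, Meis1 stood at 9.36, 10.10 and 9.29 in senescence marrow, against 8.55, 8.74, 8.47 and 8.60 in wild-type marrow. The groups did not overlap, with a difference of 0.99 ± 0.20 that missed the threshold (adjusted p = 0.169). Pbx3, which binds DNA with both Hox and Meis proteins, stood at 8.98, 9.07 and 9.73 in senescence marrow, against 7.72, 7.85, 8.22 and 8.41 in wild-type marrow (1.21 ± 0.37, not called). Of the 22 measured members of the list of MLL fusion targets, 3 rose, none fell and 8 lay above every wild-type array (36.4%, against 3.97% of all genes). Those 8 were Hoxa4, Hoxa5, Hoxa7, Hoxa9, Hoxa10, Hoxa11, Meis1 and Pbx3. Among them Hoxa4 (0.22 ± 0.13) and Hoxa11 (0.10 ± 0.13) rest on probe sets below the lower quartile of the arrays, which may hold little signal. No member of the list lay below every wild-type array, where 2.07% of all genes did. The median difference of the list was 0.14. Targets outside the Hox network had smaller differences, among them the progenitor transcription factors Myb (-0.33 ± 0.29) and Mecom (0.10 ± 0.15), the cell cycle kinase Cdk6 (-0.29 ± 0.38) and the receptor Flt3 (0.26 ± 0.19). The mouse genes of the fusion partners were at the wild-type level within their error, Kmt2a (MLL) by -0.02 ± 0.18 and Mllt1 (ENL) by 0.11 ± 0.17, with 95% intervals of -0.40 to 0.36 and -0.25 to 0.47. Of 16 members of the MLL and elongation complexes none was called, and the median difference was 0.01.

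Esr1 encodes oestrogen receptor alpha, whose hormone-binding part in mutated form belongs to the fusion. Its probe set stood at 8.39, 8.39 and 8.28 in senescence marrow, against 5.60, 5.75, 6.65 and 6.18 in wild-type marrow. This was the smallest p of all genes (2.31 ± 0.21, adjusted p = 0.000225), and every senescence array lay more than 1 unit above the highest wild-type array. The sequence that this probe set detects was not used here, so RNA of the fusion and RNA of the mouse's own receptor gene cannot be told apart.

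**Figure D2:**
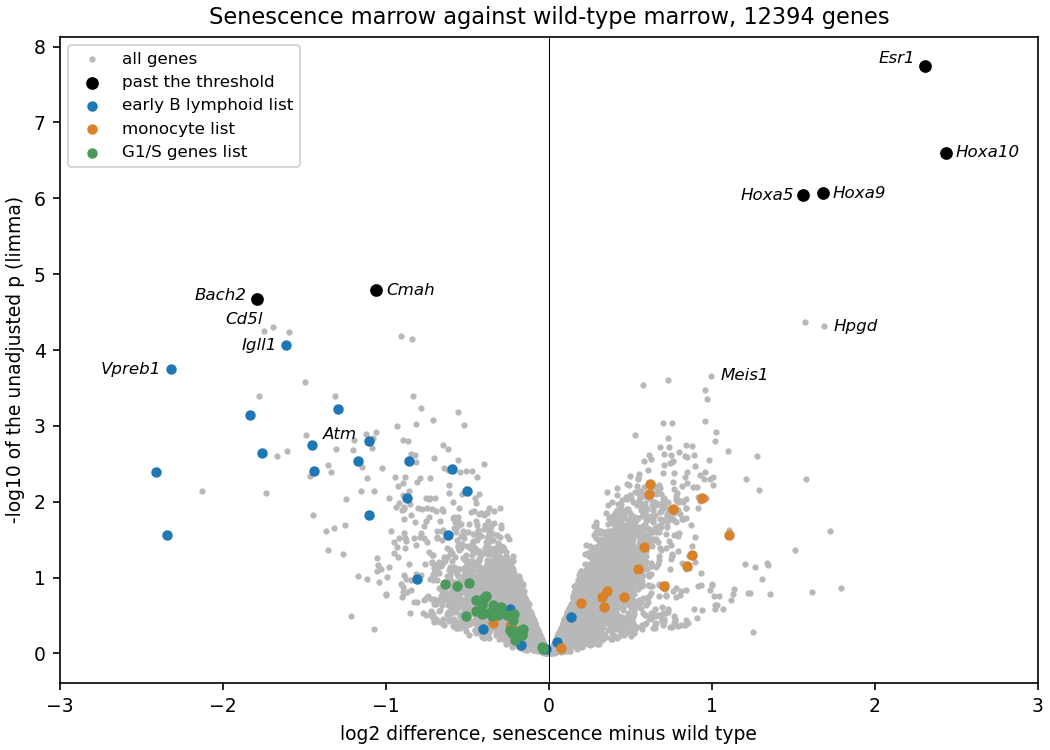
Log2 difference (senescence minus wild type, horizontal) against -log10 of the unadjusted limma p (vertical) for all 12394 genes. Black points are the 6 called genes, and coloured points are members of 3 lists. The early B list lies mostly to the left (median difference -0.87), the monocyte list to the right (0.56), and the G1/S list forms a cluster of small differences with large p (-0.32).

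Of the called genes that fell, Bach2 belongs to the B lineage, where it is a transcription factor that represses the plasma cell regulator Prdm1. Bach2 stood at 7.02, 7.71 and 7.64 in senescence marrow, against 9.59, 8.38, 9.51 and 9.52 in wild-type marrow. Bach2 fell 3.47-fold (-1.79 ± 0.29, adjusted p = 0.0437), with no overlap although wild-type array 2 was more than 1 unit below the other wild-type arrays. The Bach2 promoter is shown as the only window of the 5 called genes looked up (all but Esr1) that holds the Hox and Pbx motif TGATNNAT, which is in 8.85% of all promoters (either strand, CG in capitals).
Bach2, chr4:32417185-32417484, plus strand: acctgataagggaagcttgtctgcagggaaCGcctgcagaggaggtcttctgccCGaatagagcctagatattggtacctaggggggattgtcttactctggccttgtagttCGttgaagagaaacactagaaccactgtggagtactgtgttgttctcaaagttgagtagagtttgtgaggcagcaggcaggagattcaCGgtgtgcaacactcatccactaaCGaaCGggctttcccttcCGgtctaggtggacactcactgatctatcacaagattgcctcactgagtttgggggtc
The window holds 7 CG, the median of all promoters.

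All 27 measured members of the early B list, which holds genes of B cell precursors, follow by role. The surrogate light chain, which stands in for the antibody light chain in precursors, is made of Vpreb1 and Igll1. Vpreb1 stood at 6.19, 7.92 and 8.69 in senescence marrow, against 9.93, 9.30, 9.73 and 10.73 in wild-type marrow (-2.32 ± 0.47, adjusted p = 0.148). Igll1 stood at 7.09, 7.21 and 8.22 in senescence marrow, against 9.00, 8.52, 9.10 and 9.85 in wild-type marrow (-1.61 ± 0.30, adjusted p = 0.0768). Neither was called, and in both no senescence array reached the lowest wild-type array. A dimmer probe set of Igll1, near the lower quartile of the arrays, showed -0.12 ± 0.17. The recombination genes had some of the largest differences, Rag1 with -2.41 ± 0.71, Dntt with -2.34 ± 0.95 and Rag2 with -0.62 ± 0.25. For the signal components of the B cell receptor the difference was -1.29 ± 0.30 for Cd79b, -1.11 ± 0.40 for Cd79a and -1.11 ± 0.29 for the adaptor Blnk, and for the interleukin 7 receptor, which early B and T cells need, -1.83 ± 0.43 (Il7r).

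The transcription factors of early B cells were not uniform. Spib (-1.76 ± 0.48), Pou2af1 (-1.45 ± 0.38), Ebf1 (-1.44 ± 0.42), Irf4 (-0.87 ± 0.29), Sox4 (-0.81 ± 0.47), Foxo1 (-0.60 ± 0.17) and Lef1 (-0.51 ± 0.16) had negative values. Ikzf1 (-0.24 ± 0.21), Tcf3 (-0.23 ± 0.22), Irf8 (-0.23 ± 0.28), Pax5 (0.05 ± 0.13) and Erg (0.13 ± 0.13) were close to wild type, and Ikzf1, Irf8 and Erg also act in other marrow cells. The remaining members were Akap12 (-1.17 ± 0.33), Vpreb3 (-0.86 ± 0.24), Enpep (-0.40 ± 0.56), Cplx2 (-0.17 ± 0.57) and Cd24a (-0.02 ± 0.13). None but Bach2 was called. Of the 27 members 25 had a negative difference and 12 lay below every wild-type array (44.4%, against 2.07% of all genes), with a median of -0.87.

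Of the 28 measured members of the mature B list none was called. Below every wild-type array lay 9 members, and 2 lay above (32.1% and 7.14%, against 2.07% and 3.97% of all genes), with a median of -0.30. Fcrla, an Fc receptor-like protein inside B cells, stood at 6.86, 8.08 and 7.82 in senescence marrow, against 9.60, 8.54, 9.66 and 9.53 in wild-type marrow (-1.75 ± 0.31, adjusted p = 0.0657). Fcer2a, the low-affinity IgE receptor CD23, stood at 7.07, 7.02 and 6.83 in senescence marrow, against 9.02, 8.08, 9.04 and 7.72 in wild-type marrow (-1.49 ± 0.31, adjusted p = 0.18). The groups were apart in both. Cd72, an inhibitory coreceptor (-1.30 ± 0.35), and Ccr7, which guides lymphocytes to lymph nodes (-1.19 ± 0.31), had differences of similar size. The other members below every wild-type array were the chemokine receptor Cxcr5 (-1.47 ± 0.44), the kinase Blk (-1.25 ± 0.42), Cd22 (-1.16 ± 0.37), Ly6d (-0.82 ± 0.31) and the complement receptor Cr2 (-0.77 ± 0.32). Those above were the tetraspanin Cd37 (0.41 ± 0.15) and the kinase Syk (0.36 ± 0.17), which myeloid cells also express. The antigen presentation genes of the list, which myeloid cells also use, were close to wild type, as H2-Aa (-0.10 ± 0.30) and Cd74 (-0.19 ± 0.29). In the 9 plasma cell genes none was called and the median was -0.15.

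Over both B lists 21 of 55 members lay below every wild-type array (38.2%, against 2.07% of all genes). With any 1 of the 7 arrays left out the count was 21 to 30, and the share of all genes 2.4% to 6.41%. Leaving out an array can only keep or raise such counts, so this range is no test of their stability. Wild-type array 2 had the lowest early B mean of its group, 0.56 below the wild-type mean, while the senescence arrays lay 1.34, 0.96 and 0.71 below it. Without that array 9 B list members were called among 31 genes, without senescence array 3 it was 2 among 6, and in the other 5 fits no B list member was called. These counts were added after the data were seen. The Bach2 call itself was lost in 6 of the 7 fits without 1 of these arrays and in 6 of 8 without 1 proliferation or transition array. It was also lost in 6 of 10 settings, which count the fit without proliferation array 1 again. Its adjusted p reached 0.373, whereas its difference stayed between -2.08 and -1.58.

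**Figure D3:**
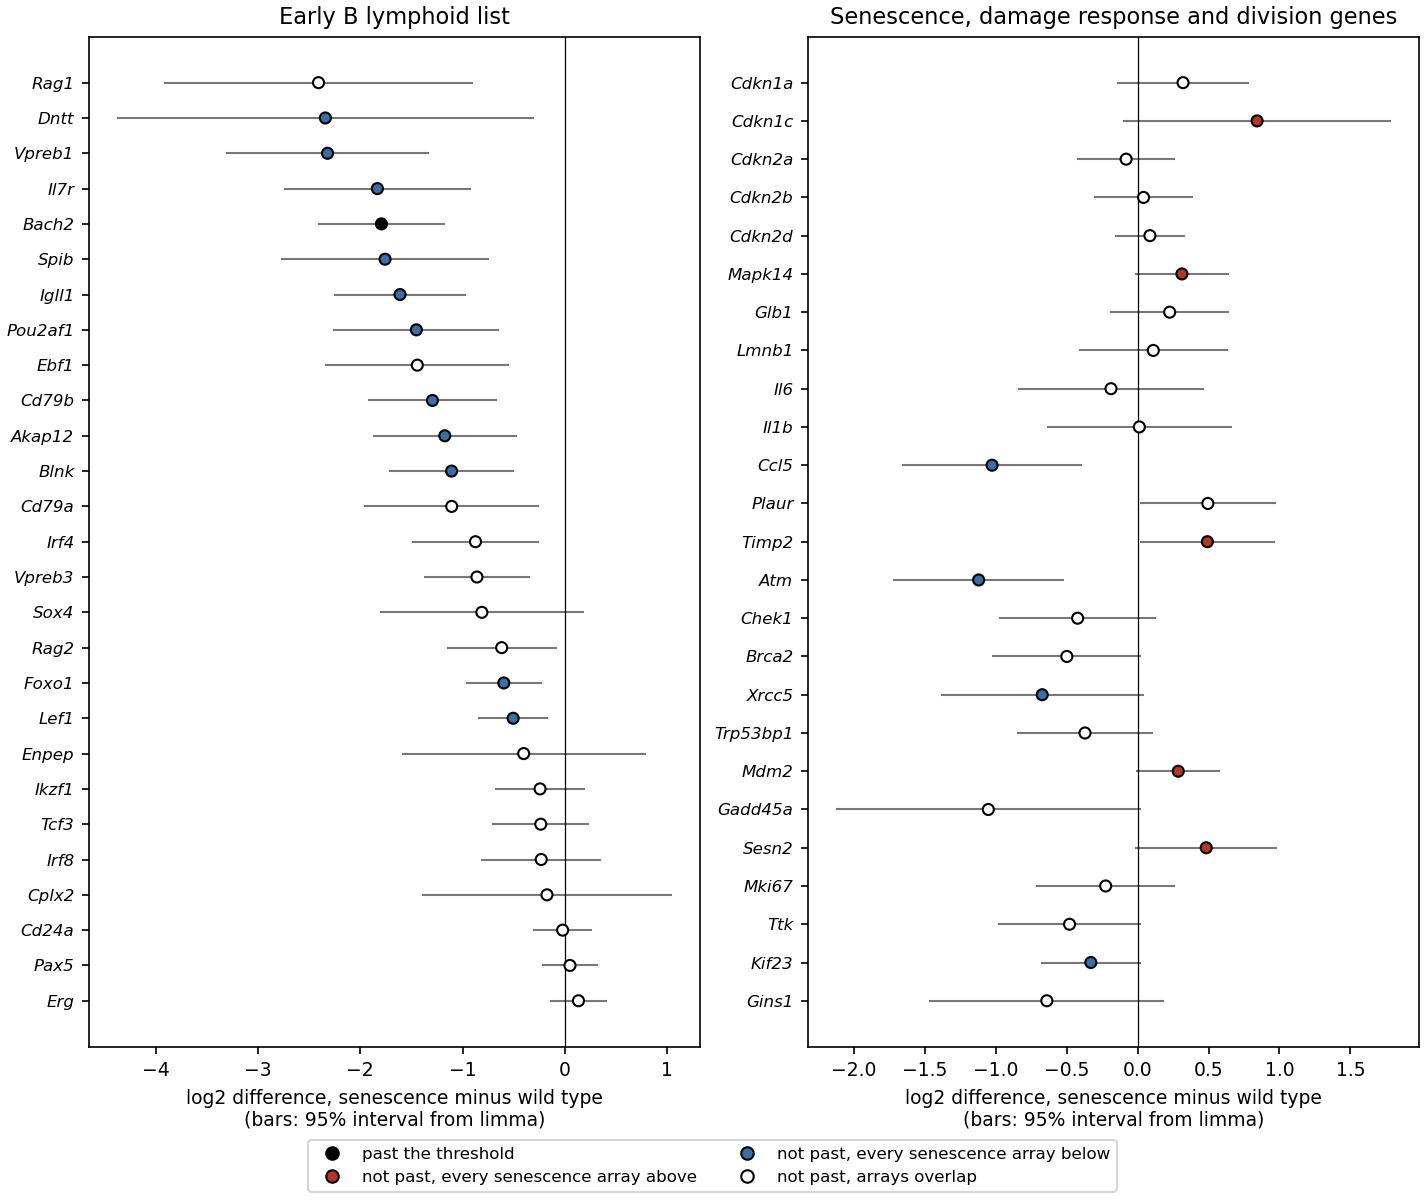
Log2 differences of the 27 early B genes (left) and of 25 senescence, damage response and division genes (right), senescence minus wild type. Points are limma estimates and bars their 95% intervals. Black marks a called gene, blue and red mark genes whose senescence arrays lay below or above every wild-type array without a call, and white marks overlap. On the left 25 of 27 points lie below 0, and on the right none is black.

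Cmah converts the sialic acid Neu5Ac into Neu5Gc, the form that caps glycans on most mouse lymphocytes. It stood at 7.82, 8.29 and 7.93 in senescence marrow, against 9.42, 9.05, 9.00 and 8.82 in wild-type marrow. It fell 2.09-fold (-1.06 ± 0.17, adjusted p = 0.0402), and its second probe set showed -0.64 ± 0.20 with every senescence array below wild type. The call was lost in 4 of the 7 fits without 1 of these arrays and in 5 of 8 without 1 proliferation or transition array. It was also lost in 3 of 10 settings, which count the fit without proliferation array 1 again (adjusted p up to 0.35). Of 32 measured genes that make, transfer, remove or bind sialic acid Cmah alone was called, and the median was -0.01. Below every wild-type array lay 3 (9.4%, against 2.07% of all genes), and above lay 2 (6.25%, against 3.97%). St6gal1, which adds the sialic acid that Cd22 binds, stood at 10.75, 11.64 and 11.48 in senescence marrow, against 12.14, 11.67, 12.50 and 12.56 in wild-type marrow (-0.93 ± 0.29, adjusted p = 0.57). Cd22, an inhibitory receptor of B cells, had -1.16 ± 0.37 and also lay below every wild-type array. The members above were the sialyltransferases St3gal4 (0.40 ± 0.19) and St8sia2 (0.13 ± 0.14). The sialidase Neu1 had 0.63 ± 0.28 and the eosinophil receptor Siglecf 0.75 ± 0.35. In the network around Bach2 and the small Maf proteins, Bach2 was the only called gene of 18, and the median difference was 0.01, with Bach1 at 0.14 ± 0.24 and its target Hmox1 at 0.17 ± 0.25.

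Monocyte genes stood on the higher side. Of 18 measured, none was called, 16 had a positive difference and 6 lay above every wild-type array (33.3%, against 3.97% of all genes), with a median of 0.56. Csf1r, the receptor for the growth factor of monocytes and macrophages, stood at 13.78, 13.81 and 14.30 in senescence marrow, against 13.32, 13.51, 13.31 and 13.24 in wild-type marrow (0.62 ± 0.19, adjusted p = 0.57). Lgals3, the lectin galectin-3, had 0.61 ± 0.20 and Ace, angiotensin-converting enzyme, 0.94 ± 0.31, both without overlap of the groups. The other members above every wild-type array were the endotoxin coreceptor Cd14 (0.88 ± 0.41), the nuclear receptor Nr4a1 (0.71 ± 0.44) and Ms4a6c (0.58 ± 0.26). The pan-macrophage genes Adgre1 (0.89 ± 0.24) and Cd68 (0.96 ± 0.28) also lay above every wild-type array. Both come from the list of 18 tissue macrophage genes, in which no other member did and 9 were higher and 9 lower. Cd68 stood at 12.05, 12.19 and 12.88 in senescence marrow, against 11.26, 11.86, 11.34 and 11.21 in wild-type marrow.

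The macrophage genes had no common direction. Cd5l, a protein that resident macrophages secrete, stood at 8.32, 7.99 and 7.85 in senescence marrow, against 10.04, 9.31, 9.73 and 9.90 in wild-type marrow. The groups lay about 1 unit apart, and the difference of -1.69 ± 0.30 just missed the threshold (adjusted p = 0.0657). The complement genes C1qa (-0.03 ± 0.56), C1qb (0.20 ± 0.71) and C1qc (0.45 ± 0.66), defining genes of tissue macrophages, had wide errors, and the median of the 18 macrophage genes was 0.00. Of 28 genes of secondary granules and mature neutrophils 26 had a positive difference, and the median was 0.24. Above every wild-type array lay 2 (7.14%, against 3.97% of all genes). Csf3r, the receptor for granulocyte growth factor, led them (0.84 ± 0.29, adjusted p = 0.629), while the 2 members apart from wild type were Lyz2, lysozyme (0.15 ± 0.10), and Lcn2, lipocalin 2 (0.09 ± 0.10). The 15 genes of primary granules, made by promyelocytes, had a median of 0.04, with Elane at 0.36 ± 0.34 and Ctsg at -0.39 ± 0.23. None of the 16 dendritic cell genes was called, 6 were higher and 10 lower, and the median was -0.10. Below every wild-type array lay 4: Ccr9 (-1.37 ± 0.54), Ly6d (-0.82 ± 0.31), Cox6a2 (-0.65 ± 0.46) and Pacsin1 (-0.62 ± 0.16). Above every wild-type array lay 1, Naaa (0.52 ± 0.25). Of all genes 2.07% lay below and 3.97% above.

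Most T and NK cell genes were lower in value without a call. Of 21 T cell genes 20 had a negative difference, with a median of -0.42. Below every wild-type array lay 2 (9.52%, against 2.07% of all genes), the T cell receptor subunit Cd3e (-0.45 ± 0.23) and the transcription factor Gata3 (-0.43 ± 0.32). Cd3d, another subunit of that receptor, had the smallest p of the list and went the other way (0.76 ± 0.27, adjusted p = 0.639). Of 20 NK and cytotoxic genes 17 had a negative difference, with a median of -0.51. Below every wild-type array lay 2, Klrd1 and Ccl5 (10.0%, against 2.07% of all genes). Klrd1, the NK receptor subunit CD94, stood at 9.12, 10.05 and 9.74 in senescence marrow, against 10.58, 10.10, 10.90 and 10.70 in wild-type marrow (-0.93 ± 0.23, adjusted p = 0.36). Senescence array 2 lay just under wild-type array 2, so the groups were barely apart.

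**Figure D4:**
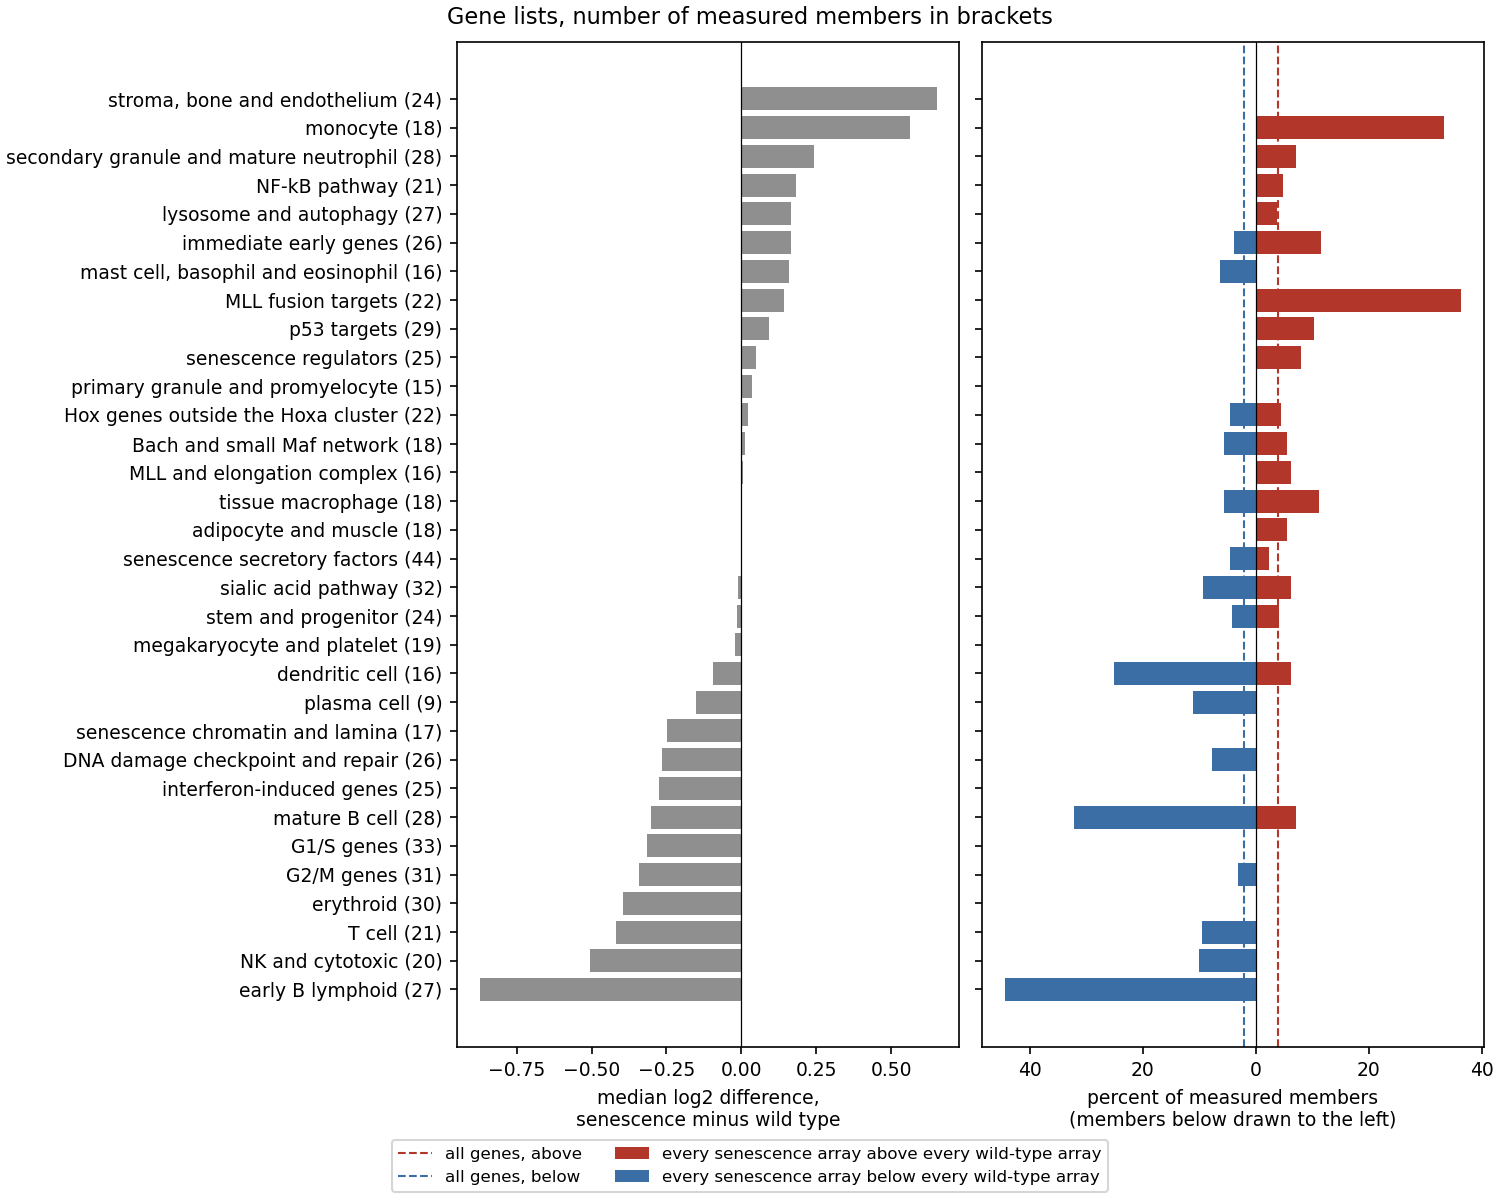
Median log2 difference of each gene list (left, senescence minus wild type) and the percentage of its measured members whose senescence arrays all lay above (red, to the right) or all below (blue, to the left) the wild-type arrays. Dashed lines mark the same for all genes, 3.97% above and 2.07% below. The early B list reaches 44.4% below, and the MLL fusion target and monocyte lists 36.4% and 33.3% above.

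The state of these mice is labelled senescence, and its usual transcripts were looked at next. Of 25 measured senescence regulators none was called, 2 lay above every wild-type array (8.0%, against 3.97% of all genes) and the median difference was 0.05. Cdkn1a (p21) stood at 10.37, 10.14 and 10.14 in senescence marrow, against 10.21, 10.02, 9.56 and 9.80 in wild-type marrow. The groups overlapped, with a difference of 0.32 ± 0.22 (adjusted p = 0.875). Cdkn2a, which encodes p16 and p19Arf, stood at 5.94, 6.03 and 5.78 in senescence marrow, against 5.91, 6.12, 5.95 and 6.02 in wild-type marrow, below the lower quartile on all 7 arrays. Its difference was -0.08 ± 0.16, with a 95% interval of -0.43 to 0.26.

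The other defining genes were likewise without a call. Cdkn2b (p15) had 0.04 ± 0.16, Glb1, the lysosomal galactosidase behind the usual senescence stain, 0.23 ± 0.20, and Lmnb1, the lamin that senescent cells lose, 0.11 ± 0.25. The 2 regulators above every wild-type array were the inhibitor Cdkn1c, p57 (0.84 ± 0.44), and the stress kinase Mapk14, p38 (0.31 ± 0.15). Cdkn1c stood at 8.30, 8.35 and 8.95 in senescence marrow, against 7.88, 8.14, 7.50 and 7.24 in wild-type marrow. Trp53 has no probe set with a single symbol and is not analysed here. Of 27 lysosome and autophagy genes 21 had a positive difference, with a median of 0.17. Above every wild-type array lay 1, the lysosomal membrane protein Lamp2 (0.34 ± 0.19). That is 3.7% of the list, near the 3.97% of all genes.

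Of 44 secretory factors linked to senescence none was called, 22 had a positive and 22 a negative difference, and the median was 0.00. Il6 had -0.19 ± 0.31 with levels of 4.79 to 5.33 in senescence marrow and 5.12 to 5.55 in wild-type marrow, below the lower quartile in both. Il1b stood at 11.59, 11.03 and 11.63 in senescence marrow, against 11.52, 12.24, 10.99 and 10.86 in wild-type marrow (0.01 ± 0.31). The chemokine Ccl5, made by T and NK cells, lay below every wild-type array (-1.03 ± 0.30), as did the chemokine Ccl20 (-0.22 ± 0.11), and the protease inhibitor Timp2 above (0.49 ± 0.22). These are 4.5% of the list below and 2.3% above, against 2.07% and 3.97% of all genes. Of 29 p53 targets none was called, 3 lay above every wild-type array (10.3%, against 3.97% of all genes) and the median was 0.09. Those 3 were the p53 antagonist Mdm2 (0.29 ± 0.14), Sesn2 (0.48 ± 0.23) and the repair gene Xpc (0.41 ± 0.22). The NF-kB (0.18) and immediate early (0.17) lists had medians above 0 without a call, and Il1rn, the interleukin 1 receptor antagonist, had the largest value among NF-kB genes (0.75 ± 0.28).

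In the DNA damage checkpoint and repair list, Atm, the kinase activated by double-strand breaks, stood at 6.99, 7.60 and 7.60 in senescence marrow, against 8.74, 7.94, 8.83 and 8.55 in wild-type marrow. It lay below every wild-type array but was not called (-1.12 ± 0.28, adjusted p = 0.412). Xrcc5, a Ku subunit of end joining, was the other member below every wild-type array (-0.67 ± 0.34). Chek1 stood at 10.09, 10.43 and 9.90 in senescence marrow, against 10.16, 10.24, 10.84 and 11.02 in wild-type marrow (-0.42 ± 0.26). Of 26 measured members 22 had a negative difference, 2 lay below every wild-type array (7.69%, against 2.07% of all genes) and the median was -0.27. RNA levels do not show whether these kinases were active.

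The cell division genes had small negative values throughout. All 33 measured G1/S genes (median -0.32) and all 31 G2/M genes (median -0.34) had a negative difference, but none was called. The spindle motor Kif23 (-0.33 ± 0.16) alone lay below every wild-type array (3.2% of the G2/M list, against 2.07% of all genes). Mki67, the usual proliferation marker, stood at 13.90, 14.37 and 14.06 in senescence marrow, against 14.20, 13.92, 14.58 and 14.63 in wild-type marrow (-0.22 ± 0.23). Of 30 red cell genes 29 had a negative difference and none lay apart from wild type, with a median of -0.40, as in the haem enzyme Cpox (-0.89 ± 0.60) and the water channel Aqp1 (-0.71 ± 0.66). Of 24 stromal, bone and endothelial genes 22 had a positive difference and none lay apart, with a median of 0.65. The osteoclast protease Ctsk stood at 9.45, 9.88 and 9.97 in senescence marrow, against 8.30, 10.67, 7.32 and 7.97 in wild-type marrow (1.20 ± 0.61), with wild-type array 2 the highest of all 7.

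**Figure D5:**
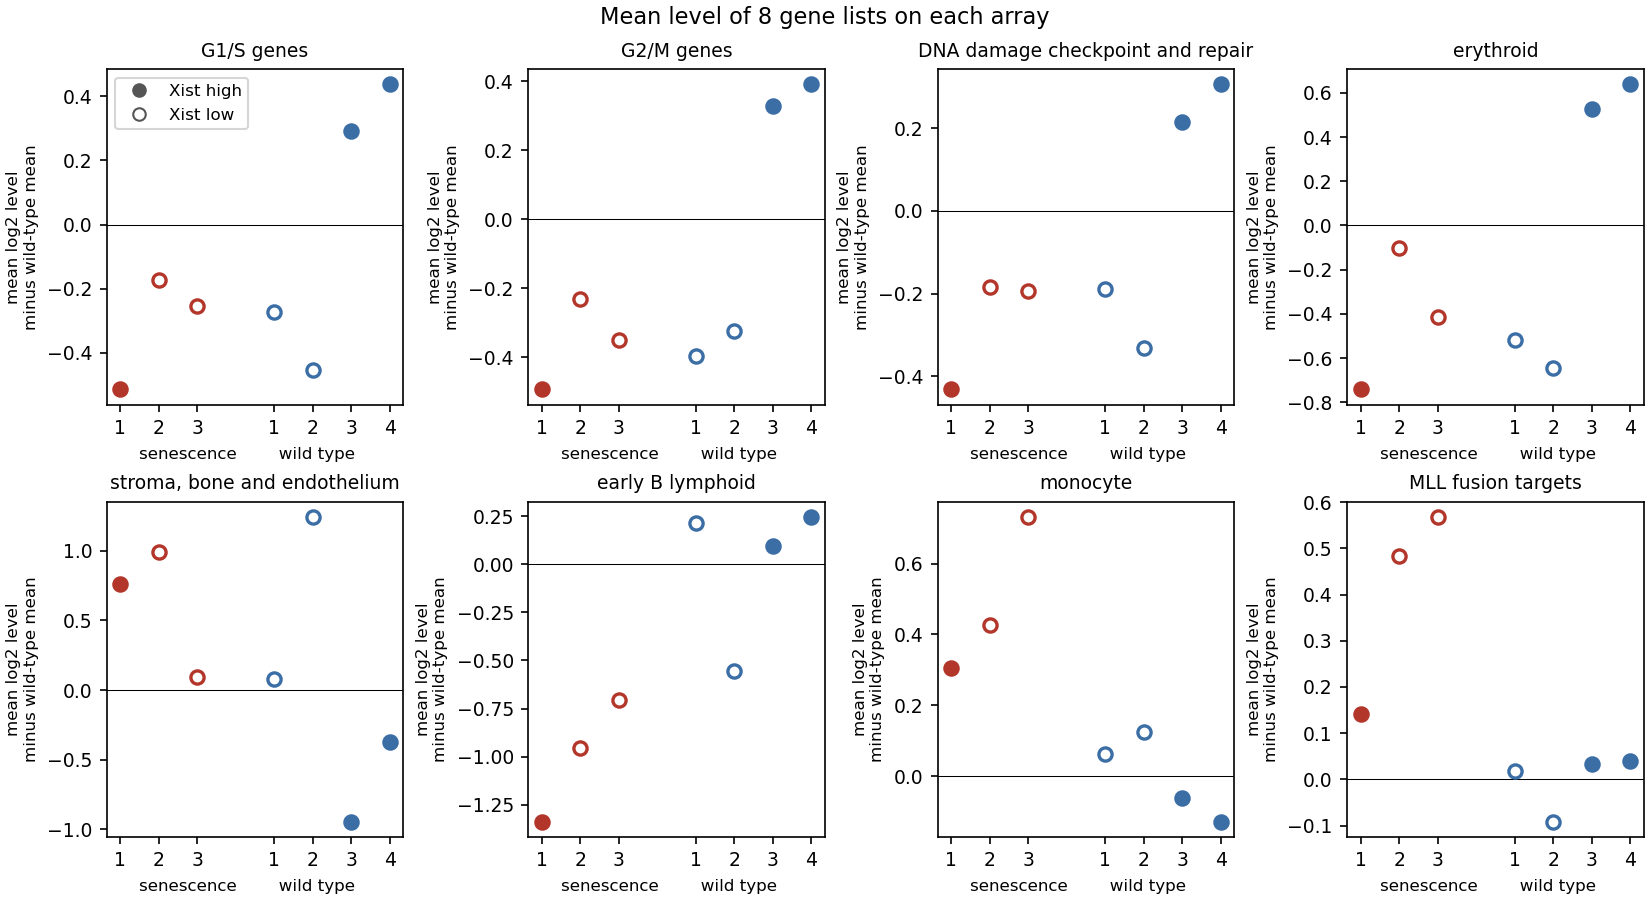
Mean log2 level of 8 gene lists on each array, minus the mean of the 4 wild-type arrays, with senescence arrays left of wild-type arrays. Filled points have high Xist and open points low Xist, and the vertical axes differ between panels. In the G1/S, G2/M, damage and red cell lists the wild-type arrays fall into a high pair (3 and 4) and a low pair (1 and 2), and the senescence arrays lie near the low pair. In the early B, monocyte and MLL target lists all senescence arrays lie on 1 side of all wild-type arrays.

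These lists moved with the split of the wild-type arrays by Xist. The G1/S mean lay 0.29 and 0.44 above the wild-type mean in arrays 3 and 4, and 0.27 and 0.45 below it in arrays 1 and 2. In senescence marrow it lay 0.51 below that mean in array 1, with high Xist, and 0.17 and 0.25 below it in arrays 2 and 3, with low Xist. Among arrays with high Xist (senescence 1 against wild type 3 and 4) the median G1/S difference was -0.82, and among those with low Xist (senescence 2 and 3 against wild type 1 and 2) it was 0.14. The direction turned in the same way for G2/M (-0.78 and 0.04), damage and repair (-0.82 and 0.10), red cell genes (-1.26 and 0.33) and stroma (1.51 and -0.10), and the NK median was -1.30 among arrays with high Xist and -0.02 among those with low Xist. The dendritic cell median was -0.54 among arrays with high Xist and 0.07 among those with low Xist. These values were added after the data were seen, were not tested and have 1 senescence array among those with high Xist. The fit with Xist as a covariate cannot follow a turn between the Xist classes. Its medians were -0.24 for G1/S, -0.29 for G2/M and -0.32 for red cell genes. With array weights they were -0.54, -0.55 and -0.75, and 1.36 for stroma.

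The lists named first kept their direction on both sides of this split. The early B median was -1.67 among arrays with high Xist and -0.65 among those with low Xist, and the monocyte median 0.26 and 0.49. The called genes did so as well. Their direction could not turn in any split, since every senescence array lay apart from every wild-type array in each of them. The mean levels of the early B and monocyte lists lay apart in the same way, so the split is no test of either. Hoxa10 differed by 1.98 among arrays with high Xist and 2.60 among those with low Xist, Hoxa9 by 1.22 and 1.96, Hoxa5 by 1.42 and 1.59, and Esr1 by 1.98 and 2.66. Cmah differed by -1.10 and -1.12 and Bach2 by -2.49 and -1.31.

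The genes with the smallest p among those not called lay at adjusted p of 0.0657 and above. On the higher side, Hpgd, the enzyme that degrades prostaglandin E2, stood at 13.23, 13.44 and 12.78 in senescence marrow, against 11.53, 11.57, 11.62 and 11.13 in wild-type marrow (1.69 ± 0.30, adjusted p = 0.0657). Apoc2, an apolipoprotein that activates lipoprotein lipase, stood at 10.28, 9.87 and 10.95 in senescence marrow, against 8.95, 9.20, 8.74 and 8.29 in wild-type marrow (1.57 ± 0.27, adjusted p = 0.0657). In both probe sets every senescence array lay above every wild-type array. A second, dimmer probe set of Hpgd overlapped between the groups (1.53 ± 0.44). The homeobox factor Hlx had 0.73 ± 0.15 (adjusted p = 0.179), the microtubule protein Eml5 0.96 ± 0.21 (0.207), the keratin Krt80 0.97 ± 0.21 (0.23) and the iron regulator Hfe 0.96 ± 0.23 (0.356), of which Hfe alone overlapped with wild type. On the lower side, Sit1, a signalling adaptor of lymphocytes, had -0.91 ± 0.16, Traf3ip2, an adaptor of the interleukin 17 receptor, -0.84 ± 0.15 (adjusted p = 0.0673 for both), and the magnesium transporter Slc41a2 -0.84 ± 0.18 (adjusted p = 0.219).

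For the called genes the other fusion states, set against the same 4 wild-type arrays, stood as follows. Hoxa10 differed from wild type by 2.43 ± 0.27 in senescence marrow, 2.86 in proliferation marrow and 3.20 in transition marrow. Hoxa9 differed by 1.68, 2.22 and 2.18 in that order, Hoxa5 by 1.56, 1.72 and 1.92, and Esr1 by 2.31, 2.34 and 2.35. Cmah differed by -1.06, -1.02 and -1.43 and Bach2 by -1.79, -1.98 and -2.07. By list medians in the same order, monocyte genes differed by 0.56, 0.54 and 0.55, and early B genes by -0.87, -1.05 and -1.08. These comparisons share their wild-type arrays and so are not independent of each other.

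Set directly against the 8 proliferation and transition arrays, senescence marrow had no called gene (0.0% of 12394 by limma), with 235 genes at an unadjusted p below 0.05 and likewise no call in any other setting run. The difference was -0.60 for Hoxa10, -0.52 for Hoxa9, -0.25 for Hoxa5 and -0.03 for Esr1. The gene with the smallest p on the lower side was the chemokine Ccl3. It stood at 6.20, 7.10 and 7.59 in senescence marrow, and its difference of -1.61 from the other states came with 3.22 in transition against wild type and 0.77 in proliferation against wild type. On the higher side were Mest, an imprinted hydrolase gene (0.71), Gspt2, a translation termination factor (0.79), Cdkn2d, the kinase inhibitor p19Ink4d (0.39), the acute phase protein Orm1 (0.78), the carboxylesterase Ces1d (1.41) and Ttc39b (0.57). On the lower side after Ccl3 came Txlnb (-0.44), Rpap2 (-0.41), Sytl2 (-0.81), the AMP deaminase Ampd2 (-0.75) and the growth factor Nrg4 (-1.17). All 12 genes had an adjusted p of 1.0. The erythroid list had a median of 0.28 in this comparison, the megakaryocyte and platelet list 0.65, the early B list 0.14, the monocyte list -0.03 and the G1/S list -0.06. Single arrays weigh on the first 2 values. The erythroid mean was 9.83 in transition array 4, the next lowest being 11.11 in proliferation array 1. The megakaryocyte and platelet mean was 11.76 in senescence array 2, against 10.07 and 10.32 in senescence arrays 1 and 3. All 8 proliferation and transition arrays had high Xist, whereas 2 of 3 senescence arrays had low Xist, so state and Xist class largely cannot be told apart here.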

How the data were processed

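RNA of mouse bone marrow was hybridised to an Affymetrix array, and the authors deposited log2 probe set values made with RMA, affy and limma per the submitters' processing notes. Versions and settings are not given in the sources used here. Arrays have no read depth, and their number limits the precision (median standard error 0.19). Of 22690 probe sets, 20393 had 1 symbol, 691 several and 1606 none, and the brightest probe set stood for a gene. The 14 columns of the table that hold no marrow array were not used. One limma model (3.58.1, R 4.3.3) with 4 groups was fitted to the 15 marrow arrays, with 11 residual degrees of freedom and empirical Bayes tests, adjusted by Benjamini-Hochberg at 0.05. It was tested on simulated data. Groups came from the labels. The members and the 33 gene lists were chosen with earlier results of these data known, so they give no independent support. The genes named were drawn from every called gene, the 8 others with the smallest p in each direction, up to 4 of each list by p, the Hoxa genes and 14 measured genes of the model, of senescence and of division, and against the other states the 6 with the smallest p in each direction. The rest of the early B list and members counted apart from wild type in the lists described were named after their values were seen. Alternatives changed the normalization, scaling, filter, probe set rule, arrays fitted, variance model, weights, block and covariates. Promoters came from RefSeq, GRCm38.p6, matched by symbol (5 of 5), and figures were drawn with matplotlib 3.10.9.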

Additional observations from a re-analysis of the deposited data

Results flagged for a closer look

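In the 201 groups of 4 arrays tested for a lone array, 7 had an array far from the others, and chance flags about 1 in 20 groups. The flags were no more frequent than that rate, and the groups share the same 4 wild-type arrays, so they are not independent. Of the 7 flags, 5 were wild-type array 2. It had the lowest Bach2 level of the wild-type arrays (8.384, the next being 9.51) and the lowest Fcrla level (8.541, the next 9.527), both B cell genes. It had the highest level of the stress-induced transcription factor Cebpd (13.173, the next 12.527) and of Siglecf (9.162, the next 8.91), and the lowest mean of the MLL fusion target list (8.369, the next 8.479). Wild-type array 4 had the lowest Hoxa11 level (5.403, the next 5.623), and wild-type array 1 the lowest mean of the interferon-induced list (9.686, the next 10.132).

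In 3 of the 33 lists every senescence array with high Xist lay on 1 side of the wild-type arrays with high Xist. Every senescence array with low Xist lay on the other side of its wild-type arrays. With so few arrays in each class some lists can fall this way by chance, at a rate that was not computed. The mean G1/S difference was -0.878 among arrays with high Xist and 0.151 among those with low Xist. It was -1.322 and 0.325 in the erythroid list and -0.617 and 0.103 in the list of senescence chromatin and lamina genes. The difference between these values was not tested, and the class with high Xist holds 1 senescence array.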

How the results depend on the processing

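The 6 called genes became 1 among the 6197 genes above the median level, which leaves Hoxa9 alone since the others were not among those genes. With eBayes trend and robust options 12 were called, with array weights 69, and the cause was not tested. The fits without 1 array called 4 to 31 genes, the highest without wild-type array 2, and 11 without transition array 1, a setting added after the data were seen. The other settings gave 4 to 8. Of the probe sets, 0 were called by limma when only the groups compared were fitted (1382 at unadjusted p below 0.05, lowest adjusted p = 0.0812), a fit with fewer arrays, against 4 in the fit of all groups, and 4 to 26 without 1 array. Hoxa10, Hoxa5 and Esr1 were called in all 10 settings that tested them and Hoxa9 in all 11, and all 4 in every fit without 1 array. With the replicate block 5 genes were called. The labels do not say that equal replicate numbers pair arrays. Deviations of senescence and wild-type arrays of the same number correlated by -0.11, 0.13 and 0.28, values that cannot settle this. No called value changed sign. Of 4126 values of the 168 named genes 39 changed sign, in 13 genes, none of them called.

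The medians of the early B, monocyte, MLL target, G1/S, G2/M, damage, erythroid and stroma lists kept their sign in all 11 alternatives, with ranges of -1.17 to -0.76 for early B, 0.35 to 0.65 for monocyte, -0.46 to -0.19 for G1/S and 0.31 to 1.12 for stroma. They also kept it with array weights, the replicate block and the Xist or Gapdh covariate, fits whose medians were added after the data were seen. The Xist covariate cannot follow a direction that turns between the Xist classes. The G1/S, G2/M, damage, erythroid and stroma medians turned in that way, so their kept sign says nothing of that split. Array weights moved the medians to -0.54 for G1/S, -0.55 for G2/M, -0.43 for damage, -0.75 for erythroid and 1.36 for stroma, outside the ranges given for G1/S and stroma, and to -0.80 for NK and -0.44 for chromatin and lamina. Those of the tissue macrophage and of the MLL and elongation lists changed sign in 5. Weak probe sets limit what can be seen for Cdkn2a, Il6 and the outer Hoxa genes.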

Other observations

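Interferon-induced genes stood lower in value, without a call. Of 25 measured, 18 had a negative difference and none lay apart from wild type, with a median of -0.27. Ifit1, an antiviral RNA-binding protein, stood at 7.36, 7.54 and 8.23 in senescence marrow, against 7.16, 9.74, 9.28 and 9.66 in wild-type marrow (-1.25 ± 0.48, adjusted p = 0.688). Usp18, which curbs interferon signalling, stood at 8.53, 8.34 and 8.72 in senescence marrow, against 8.61, 9.47, 9.79 and 9.78 in wild-type marrow (-0.88 ± 0.37). In both genes wild-type array 1 lay near the senescence arrays and the other wild-type arrays above them. Bst2, which tethers viruses to the cell, had -0.62 ± 0.18.

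Megakaryocyte and platelet genes varied within both groups. Their mean relative to wild type was -0.67, 1.02 and -0.42 in senescence arrays 1 to 3, and 0.03, 0.89, -0.52 and -0.39 in wild-type arrays 1 to 4. Senescence array 2 and wild-type array 2 stood above the rest. The platelet chemokine Pf4 stood at 11.49, 13.97 and 12.27 in senescence marrow, against 12.93, 13.85, 12.54 and 12.99 in wild-type marrow (-0.50 ± 0.57). Eosinophil and basophil genes were uneven in senescence marrow, with Siglecf at 10.60, 8.83 and 9.70, against 8.91, 9.16, 8.86 and 8.89 in wild-type marrow, and the eotaxin receptor Ccr3 at 8.13, 5.52 and 7.28, against 6.27, 5.86, 6.21 and 6.13. The stem and progenitor list had a median of -0.02 and the adipocyte and muscle list 0.00. In the chromatin and lamina list 13 of 17 genes had a negative difference, with a median of -0.25, and the histone chaperone Hira had -0.36 ± 0.14.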
